A study of Mus musculus with 12 samples.

Results

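The comparison set 2 arrays of CHIR_8-16 cultures against 2 arrays of WiBi_0-16 cultures, 4 of the 12 arrays of a study of neurons made from mouse embryonic stem cells. The arrays were chosen by their titles, and the 2 groups hold the extremes of WNT exposure among the cultures: early agonist, and inhibition throughout. CHIR_8-16 cultures received the WNT inhibitor 53AH (2.5 µM) and the BMP inhibitor LDN193189 (0.25 µM) from day 0 to day 8, and the WNT agonist CHIR (3 µM) from day 8 to day 16. WiBi_0-16 cultures received the same inhibitors at the same doses from day 0 to day 16 and no agonist. Both groups came from a male line of 129/Ola background and were harvested on day 16. The steps of the growth protocol, of 3 and 4 days, add up to a change of medium on day 7, against day 8 in the sample descriptions. The groups differ by the agonist and by the end of both inhibitors, and the contributions of these cannot be told apart.

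Values from 2 further culture groups are given for reference. CHIR_11-16 cultures received both inhibitors until day 11 and the agonist from day 11 to day 16, at a dose the labels do not state, and WiBi_0-11 cultures received both inhibitors until day 11 and no agonist. The labels call the cultures with inhibitors to day 11 isocortical and those with CHIR from day 8 hippocampal. Each culture group had 2 arrays, and 4 tissues of E15 embryos of the Sv129s6 strain (hippocampus, cortex, midbrain and ventral telencephalon) had 1 array each. RNA of 3 sets of experiments was pooled before labelling. Nothing in the labels says that the 2 arrays of a group came from separate pools, so the spread between arrays may be technical. In the main fit, p-values and standard errors measure the spread left once group means and the difference between slides are removed. That spread is pooled over the culture groups and can be smaller than the distance between the 2 arrays of a group. In such pooled bulk RNA, fewer cells of a type and less RNA per cell cannot be told apart.

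WNT proteins bind Frizzled receptors and LRP co-receptors, which frees β-catenin from a destruction complex built on Axin, APC and GSK3. β-catenin then joins TCF/LEF factors on DNA and raises target genes, many of which feed back on the pathway. In the embryonic forebrain the cortical hem, at the medial edge of the pallium, is a source of WNT and BMP ligands, and WNT signals from it are needed for the hippocampus to form. WNT signals also favour dorsal over ventral identities in the telencephalon.

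Stretches upstream of RefSeq transcript starts are shown for Sp5, Tnfrsf19 and Lef1, WNT feedback genes that were higher in CHIR_8-16 cultures. At least 1 start region of each holds the core of a TCF/LEF binding motif. The coordinates are those of build GRCm38.p6, each stretch is written 5′ to 3′ on the strand of its gene, and capitals mark the motif. The Sp5 stretch lies at chr2:70474673-70474870 on the plus strand, with motifs that begin at positions −222 and −104 relative to the start. The Tnfrsf19 stretch lies at chr14:61038138-61038234 on the minus strand before an inner start, with its motif at position −202. The Lef1 stretch lies at chr3:131156102-131156198 on the plus strand before an inner start, with its motif at position −147. The windows at the other starts of Tnfrsf19 and Lef1 held no motif.
Sp5: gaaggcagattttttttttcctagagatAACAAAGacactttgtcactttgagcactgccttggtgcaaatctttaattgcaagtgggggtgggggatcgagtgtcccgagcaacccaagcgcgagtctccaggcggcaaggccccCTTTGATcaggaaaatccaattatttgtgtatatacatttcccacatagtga
Tnfrsf19: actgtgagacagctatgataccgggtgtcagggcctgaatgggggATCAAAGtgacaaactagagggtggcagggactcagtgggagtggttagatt
Lef1: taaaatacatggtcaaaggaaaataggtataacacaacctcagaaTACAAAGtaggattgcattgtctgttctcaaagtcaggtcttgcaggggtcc

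The search was for the motif CTTTGAA and its 3 variants with other A or T letters at the last 2 places, on either strand, from 250 bases before to 50 after each start. Of 8 WNT feedback genes searched, 7 had a window in the RefSeq table and 4 of these held a motif, the other being Sp8, which was lower in CHIR_8-16 cultures. A motif was in 16.9% of all 32851 windows. It was in at least 1 window of 14.6% of the 13055 tested genes that matched the table, 11% of the 118 matched genes called higher and 15.5% of the 84 called lower. The motif was thus present in Sp5, Tnfrsf19 and Lef1 but was not more frequent among the genes called higher than among all genes tested, and a match of letters is not a measured site.

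Levels below are log2 processed signals relative to the 75th percentile of each array, so that 1 unit is a doubling, and differences are CHIR_8-16 minus WiBi_0-16. With slide as a block, 320 of 25538 genes were called in limma at a Benjamini-Hochberg adjusted p under 0.05 (1.25%), 190 higher (0.744%) and 130 lower (0.509%). The share of calls that were higher was 59.4%, and 48.6% of 1286 calls with normexp background correction and quantile normalization. The slide was a block because the arrays numbered 1 were all hybridised on slide 2 and those numbered 2 on slide 3. Without the block 4 genes were called (0.0157%): Otx1 was higher, and Frat1, Egfr and Ibsp were lower. The smallest adjusted p was 0.0202 with the block and 0.0428 without it, and the median residual SD was 0.182 with it and 0.317 without it. Leaving out replicate 2 of CHIR_8-16 or replicate 1 of WiBi_0-16 left 0 genes called in limma, with 6087 and 4715 genes at an unadjusted p under 0.05. Without replicate 2 of WiBi_0-16, 1 gene was called and it was not among the 320, and without replicate 1 of CHIR_8-16, 326 were called, of which 113 were among the 320. The calls below therefore depend on which arrays are included.

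Among the genes called, 291 had a measured difference of at least 2-fold, and the median measured fold was 2.80 for those higher and 3.06 for those lower. Of the called genes, 23 were not well above background in WiBi_0-16 cultures and 20 in CHIR_8-16 cultures, so their folds are only lower bounds. Some bounds were under 2-fold, such as 1.77 for Chrm1 and 1.75 for Sim1. Hoxb4 and Adcy10 were below background in both groups. Counts of 2-fold differences, here and below, use the measured differences. All 320 differed in the same direction on both slides, as did 65.1% of all genes. In 313 of them the arrays of the 2 groups did not overlap, as in 34.8% of all genes. The genes were called on these same arrays, and the fit favours genes with like differences on both slides. Both counts are therefore descriptions and not separate support for the calls. The differences on slide 2 and on slide 3 correlated at r = 0.43 across 25538 genes, which are not independent replicates. The median difference of all genes was 0.01, with 51.1% of genes above 0 and 48.9% below. At least 2-fold higher were 1210 genes (4.74%) and at least 2-fold lower were 611 (2.39%). No symbol beyond a clone or predicted name was available for 76 of the called genes.

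**Figure D1:**
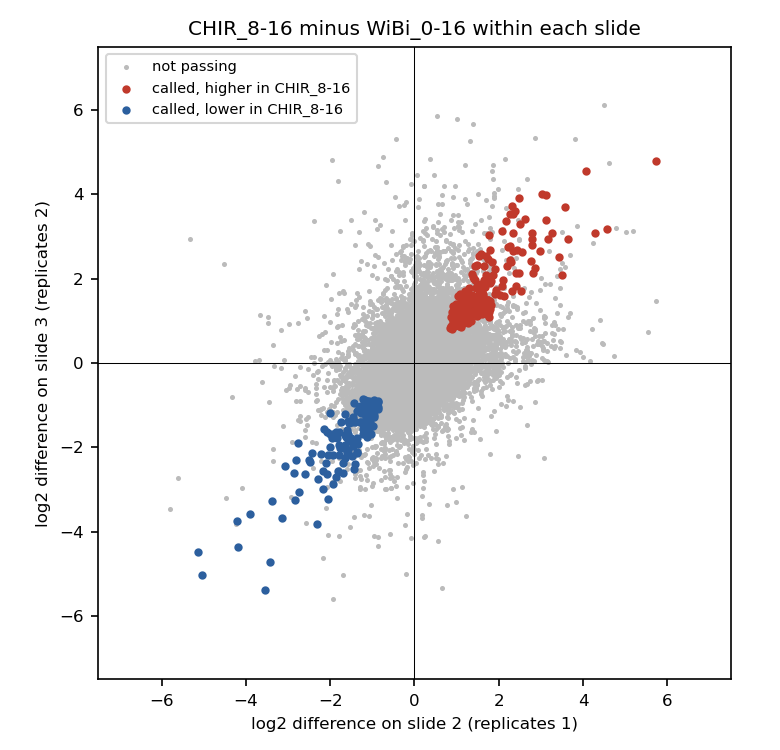
Log2 difference of CHIR_8-16 minus WiBi_0-16 on slide 2 (horizontal axis, replicates 1) and on slide 3 (vertical axis, replicates 2), 1 point per gene tested. The 190 genes called higher (red) and the 130 called lower (blue) lie in the upper right and lower left corners, and genes that did not pass (grey) fill the middle and also reach large differences on a single slide.

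The 8 culture arrays had 61.2% to 71.18% of non-control spots well above background, and their 75th percentiles ran from 649.44 to 1129.72 intensity units. Between slides 3 and 2, 8778 genes differed in the same fit. The neuronal label of the cells was checked on marker genes: Tubb3, Map2, Dcx, Snap25, Stmn2 and Rbfox3 were well above background on all 4 arrays, with differences of −0.41 (Map2) to 0.27 (Tubb3), and none passed. Markers of other cell types were divided. Endothelial Cdh5, microglial C1qa and Tyrobp and choroid plexus Kl were not well above background on any of the 4 arrays. Microglial Aif1 was well above background on 1 array of each group, and endothelial Cldn5 on 1 CHIR_8-16 array and no WiBi_0-16 array. Endothelial Pecam1 (difference −0.14) and Kdr (0.35), microglial Csf1r (−0.22) and choroid plexus Folr1 (1.38, limma adjusted p = 0.0811) were well above background on all 4, and none passed. The part of these cells in the results was not tested. Pluripotency marker Nanog was measured at −0.30 and −0.85 in CHIR_8-16 cultures and at −0.43 and −0.49 in WiBi_0-16 cultures. Pou5f1 was well above background on 1 CHIR_8-16 array and no WiBi_0-16 array, and Zfp42 on 1 array of each group. On CHIR_8-16 replicates 1 and 2, Pou5f1 was at −6.82 and −3.74 and Zfp42 at −7.21 and −2.26. In WiBi_0-16 cultures Pou5f1 was at −5.80 and −6.35 and Zfp42 at −5.09 and −6.08.

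Feedback and target genes of the WNT pathway were largely higher in CHIR_8-16 cultures. Of 22 measured members of the list 4 rose and 1 fell, 19 lay above 0, 13 were at least 2-fold higher and 1 was at least 2-fold lower. Their median difference was 1.24 (0.96 on slide 2 and 1.42 on slide 3), against 0.01 for all genes. Of all genes 1.25% were called, 51.1% lay above 0, 4.74% were at least 2-fold higher and 2.39% at least 2-fold lower. These shares apply to every list below. All the lists were drawn up with earlier results of these data known, and their counts are descriptions.

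Sp5, a zinc finger repressor and a direct β-catenin target, showed the greatest rise among the called genes with symbols. Its probe lies at chr2:70315688-70315747 (mm9, as for all probes below). Sp5 levels were 0.11 and 0.65 in CHIR_8-16 cultures, against −5.63 and −4.14 in WiBi_0-16 cultures. The difference was 5.27 ± 0.59 (SE, limma adjusted p = 0.0364), a 38.5-fold rise, with 5.74 on slide 2 and 4.79 on slide 3. The pair of CHIR_8-16 arrays lay far above both WiBi_0-16 arrays.

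Lef1 encodes the DNA-binding partner of β-catenin that is itself a WNT target and is needed for the dentate gyrus (chr3:130926200-130926259). Its levels were 4.22 and 3.37 in CHIR_8-16 cultures, against 1.88 and 0.28 in WiBi_0-16 cultures. Lef1 rose by 2.71 ± 0.22 (SE, limma adjusted p = 0.0285), 6.56-fold, and its other passing probe differed by 3.89. Without the slide block its adjusted p in limma was 0.237, and both groups were lower on slide 3.

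Nkd1, an intracellular feedback inhibitor that binds Dishevelled (chr8:91116160-91116219), had levels of 1.82 and 2.36 in CHIR_8-16 cultures, against −0.45 and −0.43 in WiBi_0-16 cultures. Nkd1 rose 5.77-fold (2.53 ± 0.20 log2, SE, limma adjusted p = 0.0285) and differed by 2.79 on a further probe. Tnfrsf19, a TNF receptor family member induced by WNT signals and found in neural progenitors (chr14:61582873-61582932), had levels of 3.46 and 2.44 in CHIR_8-16 cultures, against −0.03 and 0.35 in WiBi_0-16 cultures. It rose 6.91-fold (2.79 ± 0.37 log2, SE, limma adjusted p = 0.0438). In both genes the replicates of a group lay within about 1 unit of each other and the groups were 2 or more units apart.

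Other classical targets were higher without passing. Tcf7, a TCF factor and WNT target, was at −4.18 and −4.43 in CHIR_8-16 cultures, and at −6.66 and −7.37 in WiBi_0-16 cultures, where it was not well above background. Its level was at least 2.51-fold higher in CHIR_8-16 (limma adjusted p = 0.0623). Axin2, the scaffold of the destruction complex and the most used reporter of WNT activity, was at −0.59 and 0.71 in CHIR_8-16 cultures, and at −1.34 and −0.84 in WiBi_0-16 cultures, a difference of 1.15 ± 0.35 (SE, limma adjusted p = 0.123). Both arrays of CHIR_8-16 lay above both of WiBi_0-16 for Axin2, and the spread between the CHIR_8-16 arrays was as large as the difference. Of all genes 34.8% had no overlap between the groups, in either direction.

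Further list members that did not pass included Ccnd1 (1.53), encoding cyclin D1, Rnf43 (1.30) and Znrf3 (0.81), ubiquitin ligases that remove Frizzled receptors, and Apcdd1 (1.32), a membrane inhibitor of WNT signals. Notum, an enzyme that removes the lipid of WNT proteins, ran the other way, with 1.70 and 1.74 in CHIR_8-16 cultures and 2.20 and 2.96 in WiBi_0-16 cultures (difference −0.85 ± 0.29, SE, limma adjusted p = 0.159). Sp8, a close relative of Sp5, fell and is described with the ventral genes.

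Secreted antagonists of WNT signals also had a median above that of all genes. Of 16 measured antagonists, R-spondins and their receptors 2 rose and none fell (12.5% called, against 1.25% of all genes). Above 0 lay 10 and below it 6, and the median difference was 0.87 (0.30 on slide 2 and 1.37 on slide 3). Sostdc1, which binds WNT co-receptors and BMPs (chr12:37044532-37044591), had levels of −1.56 and 0.27 in CHIR_8-16 cultures, against −5.64 and −4.28 in WiBi_0-16 cultures. It rose 19.9-fold (4.31 ± 0.47 log2, SE, limma adjusted p = 0.0364), and a further probe differed by 4.21. Frzb, a secreted Frizzled-related protein, was not well above background in WiBi_0-16 cultures and was at least 4.03-fold higher in CHIR_8-16 cultures (limma adjusted p = 0.04). Its levels were −3.47 and −3.77 in CHIR_8-16 cultures, and −6.91 and −6.29 in WiBi_0-16 cultures. Dkk1 (2.10) and Wif1 (1.94), further secreted inhibitors, and the R-spondins Rspo3 (1.67) and Rspo1 (1.37), which enhance WNT signals, did not pass, and Rspo3 differed by 0.26 on slide 2 and 3.09 on slide 3. Sfrp1, another secreted Frizzled-related protein, ran the other way without passing (−1.21, limma adjusted p = 0.0611), by −0.97 on slide 2 and −1.45 on slide 3. Notum, also on this list, was lower too. Fst, which binds activins and BMPs (chr13:115243565-115243624), rose 8.28-fold (limma adjusted p = 0.04), with −1.28 and −1.55 in CHIR_8-16 cultures against −4.44 and −4.49 in WiBi_0-16 cultures.

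Among WNT ligands 1 of 14 measured genes fell and none rose. Their median difference was 0.36, with 0.086 on slide 2 and 0.10 on slide 3, and it changed sign between alternatives (−0.22 to 0.57). Wnt7a, a ligand made by cortical progenitors (chr6:91314653-91314712), had levels of −1.77 and −1.53 in CHIR_8-16 cultures, against −0.11 and 0.42 in WiBi_0-16 cultures. It fell by 1.81 ± 0.15 on the log2 scale (SE, limma adjusted p = 0.0285), 3.49-fold. Wnt10a differed by 4.68 ± 0.69 (SE, limma adjusted p = 0.0533), 4.62 on slide 2 and 4.75 on slide 3, and did not pass. Wnt8b, a ligand of the cortical hem, was at −0.46 and 1.78 in CHIR_8-16 cultures, and at −1.51 and −1.45 in WiBi_0-16 cultures (difference 2.14 ± 0.68, SE, limma adjusted p = 0.136). The probe of Wnt7b did not pass the filter on dim probes.

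Of 14 measured Frizzled and co-receptor genes 1 rose and none fell. Fzd9, a Frizzled receptor expressed in the developing hippocampus (chr5:135724815-135724874), had levels of 2.53 and 2.89 in CHIR_8-16 cultures, against 0.73 and 1.0 in WiBi_0-16 cultures. It rose 3.58-fold (1.84 ± 0.20 log2, SE, limma adjusted p = 0.0364), by 1.79 on slide 2 and 1.89 on slide 3. Fzd6 (2.73, limma adjusted p = 0.0547) did not pass, and neither did Fzd10, which differed by 1.02 on slide 2 and 5.80 on slide 3. The co-receptors Lrp5 (0.01) and Lrp6 (0.10) stayed near 0.

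Among 22 genes of the destruction complex and of WNT transduction, Lef1 rose and Frat1 and Frat2 fell. Frat proteins bind GSK3 and can keep it from phosphorylating β-catenin. Frat1 (chr19:41906864-41906923) had levels of −1.32 and −1.23 in CHIR_8-16 cultures, against 1.54 and 1.38 in WiBi_0-16 cultures, a fall of 2.74 ± 0.13 on the log2 scale (SE), or 6.66-fold. It had the lowest adjusted p of the comparison in limma, 0.0202 with the block and 0.0428 without it, shared with other genes. Its neighbour Frat2 (chr19:41920708-41920767) had levels of −1.61 and −1.76 in CHIR_8-16 cultures, against 0.46 and 0.88 in WiBi_0-16 cultures. Frat2 fell 5.12-fold on that probe (limma adjusted p = 0.0285), while its other passing probe differed by only −0.55, so that the probes disagree in size. The kinases and scaffolds themselves had small differences: Gsk3a (−0.19), Gsk3b (0.27), Apc (−0.29), Axin1 (−0.02) and Ctnnb1, which encodes β-catenin (−0.05), did not pass.

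**Figure D2:**
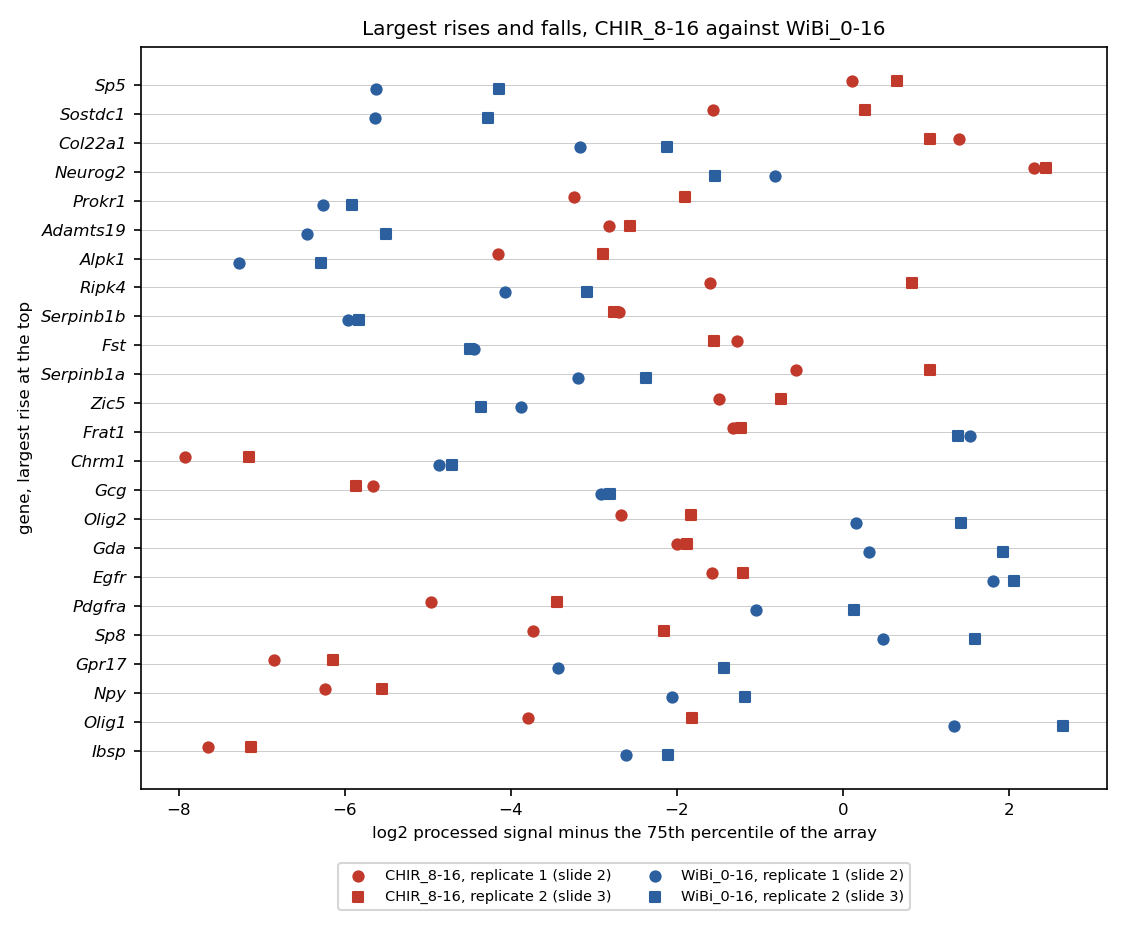
Level of each gene (log2 processed signal relative to the 75th percentile of its array, horizontal axis) on the CHIR_8-16 arrays (red) and the WiBi_0-16 arrays (blue), circles for replicate 1 and squares for replicate 2. The 12 largest rises lie above the 12 largest falls, and in each of the 24 genes both CHIR_8-16 arrays lie on one side of both WiBi_0-16 arrays.

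BMP response genes were examined because the BMP inhibitor also ended on day 8 in CHIR_8-16 cultures. None of 17 measured genes passed, and the median difference was 0.39. The direct BMP targets Id1 (1.29), Id3 (1.48) and Smad6 (1.61) lay above 0 on both slides, whereas Msx1 (−0.39) and Id2 (0.01) did not. Of 18 measured genes of the cortical hem and choroid plexus none passed. Lmx1a, a hem transcription factor, was at −0.74 and 0.66 in CHIR_8-16 cultures, and at −0.92 and −1.47 in WiBi_0-16 cultures, and its difference was 0.18 on slide 2 and 2.12 on slide 3. Ttr, the main secreted product of choroid plexus, was at −0.68 and −4.15 in CHIR_8-16 cultures. In WiBi_0-16 cultures Ttr was at −6.41 and −5.63, not well above background. Its level was at least 9.31-fold higher in CHIR_8-16 cultures (limma adjusted p = 0.102), and it was named after its values were seen. Kl was not well above background on any of these arrays.

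Pallial progenitor factors were largely higher: 3 of 28 measured genes rose, none fell, 21 lay above 0 and 7 below, with a median of 0.56 (0.75 on slide 2 and 0.54 on slide 3). Otx1, a homeobox factor of pallial progenitors and deep-layer neurons (chr11:21895767-21895826), was at −3.11 and −2.89 in CHIR_8-16 cultures, and at −5.89 and −5.85 in WiBi_0-16 cultures, where it was not well above background. Otx1 was at least 5.73-fold higher (limma adjusted p = 0.0202, and 0.0428 without the block). Gli3, which restrains Hedgehog signals and is needed for the hem (chr13:15821502-15821561), had levels of 2.90 and 2.41 in CHIR_8-16 cultures, against 1.13 and 1.21 in WiBi_0-16 cultures, a rise of 2.80-fold (limma adjusted p = 0.04). The groups did not overlap in either gene, as in 34.8% of all genes.

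Zic genes encode zinc finger factors of the dorsal midline and of medial forebrain. Zic5 (chr14:122858394-122858453) had levels of −1.49 and −0.74 in CHIR_8-16 cultures, against −3.87 and −4.36 in WiBi_0-16 cultures, and rose 8.00-fold (limma adjusted p = 0.039). Zic1, Zic2 and Zic4 were named after their values were seen. Zic1 was at 4.56 and 5.83 in CHIR_8-16 cultures, against 2.29 and 2.30 in WiBi_0-16 cultures (difference 2.90, limma adjusted p = 0.039), and its other passing probe differed by 1.41. Zic2 (1.78, limma adjusted p = 0.0641) and Zic4 (4.56, limma adjusted p = 0.073) lay above 0 on both slides and did not pass.

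The regional factors Emx2 (0.21), Lhx2 (0.30) and Fezf2 (0.43), which mark pallial progenitors or medial pallium, did not pass. Emx1 (1.14), Pax6 (1.05) and Nes (1.16), further genes of radial progenitors, lay above 0 on both slides without passing.

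In the neurogenic cascade of glutamatergic neurons 1 of 23 measured genes rose and none fell, and 20 lay above 0. Neurog2, the proneural factor that starts this cascade in pallial progenitors (chr3:127337805-127337864), had levels of 2.31 and 2.45 in CHIR_8-16 cultures, against −0.82 and −1.54 in WiBi_0-16 cultures. Neurog2 rose 11.8-fold (3.56 ± 0.25 log2, SE, limma adjusted p = 0.0271), by 3.13 on slide 2 and 3.99 on slide 3. Later members differed less: Neurod4 by 1.93, Neurod1 by 0.91 (limma adjusted p = 0.0701), Eomes, a marker of intermediate progenitors, by 0.84 (limma adjusted p = 0.0692), and Tbr1, a factor of postmitotic cortical neurons, by 0.19. Tbr1 was at 5.28 and 5.18 in CHIR_8-16 cultures and at 5.15 and 4.94 in WiBi_0-16 cultures, so the groups lay close together.

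Genes of the ventral telencephalon and of GABAergic neurons were largely lower. Of 40 measured genes 4 fell and none rose (10% called, against 1.25% of all genes). Below 0 lay 33, against 48.9% of all genes, and 21 were at least 2-fold lower, against 2.39%. The median was −1.04 (−0.58 on slide 2 and −1.51 on slide 3). Sp8, a zinc finger factor of dorsal ganglionic eminence progenitors and their interneurons (chr12:120090880-120090939), had levels of −3.73 and −2.16 in CHIR_8-16 cultures, against 0.49 and 1.59 in WiBi_0-16 cultures. It fell 15.8-fold (−3.98 ± 0.22 log2, SE, limma adjusted p = 0.0202), by −4.22 on slide 2 and −3.75 on slide 3, while its other passing probe differed by −0.83.

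Gad1 encodes an enzyme that makes GABA (chr2:70439699-70439758). Its levels were −1.25 and −1.40 in CHIR_8-16 cultures, against 0.79 and 1.82 in WiBi_0-16 cultures, a fall of 6.2-fold (limma adjusted p = 0.0364). The other GABAergic markers did not pass: Slc32a1, the vesicular GABA transporter, differed by −1.52 (limma adjusted p = 0.0735), and by −0.20 on its other passing probe, and Gad2 by −1.02, with 0.25 on slide 2 and −2.28 on slide 3. Npy, a peptide of interneurons (chr6:49773743-49777505, across an intron), was not well above background in CHIR_8-16 cultures, at −6.24 and −5.55. Its WiBi_0-16 levels were −2.06 and −1.18, and it was at least 15.8-fold lower in CHIR_8-16 cultures (limma adjusted p = 0.0228). Erbb4, a neuregulin receptor of interneurons, fell 2.57-fold (limma adjusted p = 0.0466), with 0.22 and 0.21 in CHIR_8-16 cultures against 1.26 and 1.90 in WiBi_0-16 cultures.

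The Dlx genes are homeobox factors at the head of the GABAergic programme, and none of the 4 measured passed. Dlx1, Dlx2 and Dlx5 (−2.50, limma adjusted p = 0.14) were lower on both slides, by unequal amounts, while Dlx6 (−0.25, limma adjusted p = 0.796) was at 0.78 on slide 2 and −1.28 on slide 3. Dlx2 was at 0.52 and −0.66 in CHIR_8-16 cultures, and at 2.58 and 3.43 in WiBi_0-16 cultures (difference −3.07 ± 0.59, SE, limma adjusted p = 0.0678). Dlx1 was at 0.20 and −2.47 in CHIR_8-16 cultures, and at 1.88 and 2.56 in WiBi_0-16 cultures (difference −3.36 ± 0.85, SE, limma adjusted p = 0.0936). The arrays of the groups did not overlap in Dlx1 or Dlx2, as in 34.8% of all genes. Sst, a peptide of another interneuron class, differed by −1.79 (limma adjusted p = 0.0687). Lhx6 (−0.06) and Lhx8 (−0.31), factors of the medial ganglionic eminence, lay near 0.

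Oligodendrocyte lineage genes had the highest share of calls among the lists, and of 22 measured genes 6 fell and none rose. The share was 27.3%, against 22.7% of the WNT feedback list and 1.25% of all genes, and the median was −0.39. The 6 include Egfr, described below, which is not particular to this lineage. Because the lists were drawn up with earlier results of these data known, the rank is a description. Olig1, a bHLH factor of oligodendrocyte precursors (chr16:91271799-91271858), had levels of −3.80 and −1.82 in CHIR_8-16 cultures, against 1.34 and 2.66 in WiBi_0-16 cultures. It fell 28.0-fold (−4.81 ± 0.47 log2, SE, limma adjusted p = 0.0318). Its neighbour Olig2 (chr16:91228470-91228529), needed to specify the lineage, had levels of −2.67 and −1.83 in CHIR_8-16 cultures, against 0.17 and 1.42 in WiBi_0-16 cultures, and fell 8.25-fold (limma adjusted p = 0.0357). In both genes each CHIR_8-16 array lay below each WiBi_0-16 array, and in 34.8% of all genes the groups did not overlap.

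Pdgfra, the growth factor receptor of oligodendrocyte precursors and of mesenchyme (chr5:75593888-75593947), had levels of −4.96 and −3.45 in CHIR_8-16 cultures, against −1.04 and 0.14 in WiBi_0-16 cultures. Pdgfra fell 13.5-fold (limma adjusted p = 0.0382). Gpr17, a receptor of committed precursors, was not well above background in CHIR_8-16 cultures, at −6.85 and −6.15. Its WiBi_0-16 levels were −3.43 and −1.43, and it was at least 9.03-fold lower in CHIR_8-16 cultures (limma adjusted p = 0.0314). Sox8, a SoxE factor of glia named after its values were seen, fell by 2.28 on the log2 scale (limma adjusted p = 0.0364). Members that did not pass included the lineage factors Sox10 (−0.39) and Nkx2-2 (0.21), Cspg4 (−0.10), a proteoglycan of precursors, and the myelin genes Mbp (−0.04), Cnp (0.13) and Mag (0.41), so the precursor genes did not all fall.

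Egfr, the EGF receptor, which marks glial and late ventral progenitors, fell with little spread. Its levels (chr11:16813815-16813874) were −1.58 and −1.20 in CHIR_8-16 cultures, against 1.81 and 2.06 in WiBi_0-16 cultures. The fall was 10.0-fold (−3.32 ± 0.20 log2, SE, limma adjusted p = 0.0202, and 0.0428 without the block), and 2 further probes differed by −2.46 and −2.18. Of the 28 measured FGF and EGF signalling genes Egfr and Erbb4 fell and Fgf15 rose. Fgf15, an FGF of forebrain and midbrain midline progenitors, was at 0.47 and 1.81 in CHIR_8-16 cultures, against −1.43 and −0.42 in WiBi_0-16 cultures (4.19-fold, limma adjusted p = 0.0414).

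Astrocyte and radial glia genes gave 1 rise in 28 measured and no fall, with a median of 0.43. Tnc, a matrix protein of radial glia, rose 2.12-fold (limma adjusted p = 0.0434), with −2.64 and −2.47 in CHIR_8-16 cultures against −3.66 and −3.61 in WiBi_0-16 cultures. The astrocyte markers Gfap (−0.29) and Aqp4 (0.13) did not pass, and S100b differed by 2.78 (limma adjusted p = 0.0742). In the Notch pathway, which keeps progenitors undifferentiated, the receptor Notch3 rose 2.58-fold (limma adjusted p = 0.0285) and the effector Heyl fell 2.64-fold (limma adjusted p = 0.0292), among 24 measured genes. Notch3 was at 1.61 and 1.82 in CHIR_8-16 cultures, against 0.29 and 0.41 in WiBi_0-16 cultures, and Heyl was at −5.46 and −4.58 in CHIR_8-16 cultures, against −4.05 and −3.19 in WiBi_0-16 cultures.

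**Figure D3:**
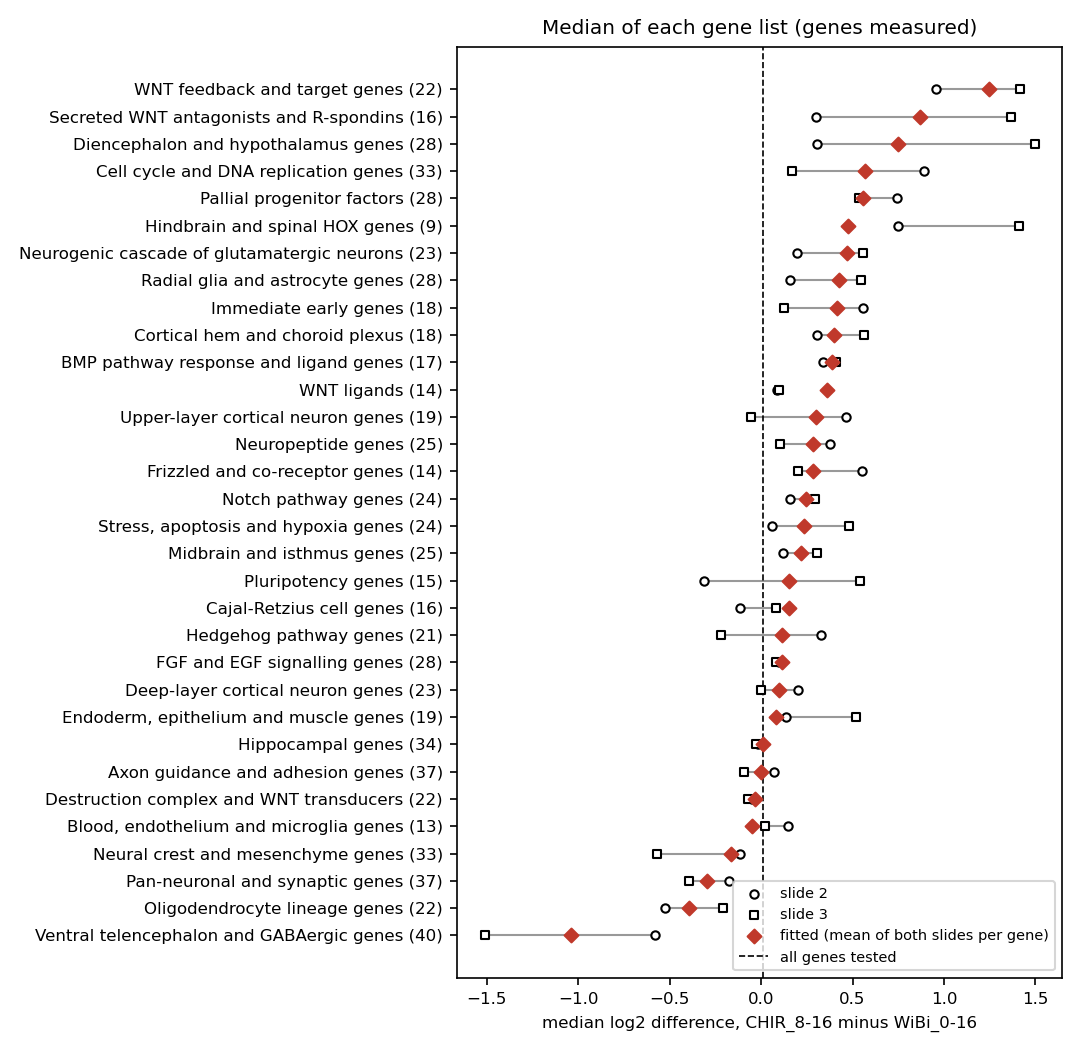
Median log2 difference (CHIR_8-16 minus WiBi_0-16) of each gene list, with the number of genes measured in brackets: white circles for slide 2, white squares for slide 3, red diamonds for the fitted differences and a dashed line for all genes tested. WNT feedback genes have the highest median (1.24) and ventral and GABAergic genes the lowest (−1.04), and slides 2 and 3 lie on the same side of 0 in both.

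Cell cycle genes all lay above 0 in the fit, in 33 of 33 measured, but none passed. Their median was 0.57, and it was 0.89 on slide 2 and 0.17 on slide 3. Mki67, a marker of cycling cells, was at 3.99 and 3.21 in CHIR_8-16 cultures, and at 3.00 and 3.58 in WiBi_0-16 cultures, so that the arrays overlapped and slide 3 ran the other way. Pan-neuronal and synaptic genes lay below 0 in 31 of 37, with a median of −0.29 (−0.17 on slide 2 and −0.39 on slide 3). Of these Syn2, a synaptic vesicle protein, was the gene called: it fell 2.17-fold (limma adjusted p = 0.039), with 3.66 and 2.86 in CHIR_8-16 cultures against 4.71 and 4.04 in WiBi_0-16 cultures. Slc17a7, a vesicular glutamate transporter of mature cortical neurons, differed by −1.40 (limma adjusted p = 0.0668), and Slc17a6, which is used earlier, by −0.05.

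Hippocampal genes did not move together. Of 34 measured, Lef1 rose and Mef2c fell, 18 lay above 0 and 16 below, and the median was 0.01, the value of all genes. Prox1, the factor of dentate granule cells, was at −2.24 and −2.09 in CHIR_8-16 cultures, and at −2.55 and −2.39 in WiBi_0-16 cultures, a difference of 0.31 ± 0.12 (SE, limma adjusted p = 0.213). Zbtb20, a factor of hippocampal pyramidal neurons, was at 1.62 and 1.42 in CHIR_8-16 cultures, and at 1.79 and 1.60 in WiBi_0-16 cultures (difference −0.17 ± 0.14, SE, limma adjusted p = 0.49). Prox1 separated the groups by a small margin and Zbtb20 did not, and 34.8% of all genes separated them. Mef2c, a factor of maturing cortical neurons that is on both the hippocampal and the upper-layer list, fell 4.43-fold (limma adjusted p = 0.0382), with −3.96 on both CHIR_8-16 arrays against −2.27 and −1.35 on the WiBi_0-16 arrays.

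Layer genes of the isocortex were largely without calls. Among 23 deep-layer genes Otx1 rose, and among 19 upper-layer genes Mef2c fell. Bcl11b (−0.18), a factor of corticospinal neurons, did not pass. Of 16 Cajal-Retzius genes Cxcl12 and Lhx5 fell. Cxcl12, a chemokine of the meninges and of cells that guide Cajal-Retzius neurons, was at −3.30 and −3.11 in CHIR_8-16 cultures, against −1.61 and −1.09 in WiBi_0-16 cultures (3.63-fold, limma adjusted p = 0.0332). Lhx5, a LIM factor of Cajal-Retzius neurons and diencephalon, was at 3.29 and 2.14 in CHIR_8-16 cultures, against 4.56 and 3.33 in WiBi_0-16 cultures (2.35-fold, limma adjusted p = 0.0318). Reln, the secreted product of these neurons, differed by 0.19, with 0.47 on slide 2 and −0.08 on slide 3.

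Genes of neighbouring brain regions were higher in a few cases without a shift that passed. Of 28 diencephalic genes Sim1 rose and Lhx5 fell, and the median was 0.75 (0.30 on slide 2 and 1.5 on slide 3). Sim1, a hypothalamic factor, was well above background on 1 of 2 CHIR_8-16 arrays and on no WiBi_0-16 array. It was at least 1.75-fold higher in CHIR_8-16 cultures (limma adjusted p = 0.0407). Foxb1 (5.31 ± 1.0, SE, limma adjusted p = 0.0668), Olig3 (4.09 ± 0.59, SE, limma adjusted p = 0.0513) and Gbx2 (3.52 ± 0.68, SE, limma adjusted p = 0.0678), factors of caudal diencephalon, thalamus or hindbrain, had large differences on both slides and did not pass. None of 25 midbrain and isthmus genes passed (median 0.22). Of 9 measured HOX and hindbrain genes Hoxb4 was called, but it was below background in both groups, so no fold is given, and 17 of the 26 listed genes did not pass the filter on dim probes.

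Mesenchymal genes fell in 2 of 33 measured, and 14 lay above 0 and 19 below. Ibsp, bone sialoprotein (chr5:104740413-104740472), had the greatest measured difference among the falls, but CHIR_8-16 levels were not well above background, which leaves only a bound. Its levels were −7.65 and −7.13 in CHIR_8-16 cultures, against −2.61 and −2.11 in WiBi_0-16 cultures. It was at least 9.47-fold lower (limma adjusted p = 0.0202, and 0.0428 without the block), and the measured difference was −5.04 on slide 2 and −5.02 on slide 3, while another probe differed by −2.62. The second was Pdgfra. The collagen genes of fibroblasts did not pass: Col3a1 differed by −1.83 (limma adjusted p = 0.0562), Col1a1 by −1.17, with −0.12 on slide 2 and −2.22 on slide 3, and Col1a2 by −0.53. The other mesenchyme markers, Dcn (0.72) and Lum (−0.20), did not pass either. Dcn was at 0.01 and −1.64 in CHIR_8-16 cultures, and at −2.32 and −0.74 in WiBi_0-16 cultures, so the markers did not all fall. Other matrix and signalling genes with calls, named after their values were seen, were Lama4, a laminin chain (at least 3.73-fold lower, limma adjusted p = 0.0228), Cxcl14, a chemokine (5.88-fold lower, limma adjusted p = 0.0318), and Vcam1, a cell adhesion molecule of radial and ventricular cells (5.66-fold higher, limma adjusted p = 0.0364).

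The remaining large rises came from varied families. Col22a1, a collagen of tissue junctions (chr15:71628906-71628965), had levels of 1.41 and 1.05 in CHIR_8-16 cultures, against −3.17 and −2.12 in WiBi_0-16 cultures, and rose 14.7-fold (limma adjusted p = 0.0292). The protease inhibitors Serpinb1a (8.13-fold, limma adjusted p = 0.0407) and Serpinb1b (at least 7.11-fold, limma adjusted p = 0.0292) rose, as did the kinase Ripk4 (9.16-fold, limma adjusted p = 0.0429). Prokr1, a prokineticin receptor, Adamts19, a matrix protease, and Alpk1, a kinase of innate immunity, were not well above background in WiBi_0-16 cultures. They rose by at least 8.32-fold (Prokr1, limma adjusted p = 0.0364), 7.67-fold (Adamts19, limma adjusted p = 0.0364) and 4.30-fold (Alpk1, limma adjusted p = 0.039). Cntn2, an adhesion molecule of growing axons, rose 7.06-fold (limma adjusted p = 0.048), with −1.96 and −1.25 in CHIR_8-16 cultures against −4.94 and −3.90 in WiBi_0-16 cultures. Its other passing probe differed by 1.28 on the log2 scale. Gadd45a, a stress and DNA repair gene, rose 3.54-fold (limma adjusted p = 0.0285), with 1.27 and 1.20 in CHIR_8-16 cultures against −0.45 and −0.73 in WiBi_0-16 cultures. It was the called gene among 24 stress, apoptosis and hypoxia genes, whose median was 0.24. The muscle genes Tnnt1 (4.69-fold, limma adjusted p = 0.039) and Myh3 (5.89-fold, limma adjusted p = 0.0271) rose, and the muscle regulator Myod1 differed by 0.15.

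The remaining large falls included Gda, guanine deaminase, an enzyme abundant in forebrain neurons (chr19:21465823-21465882). Its levels were −1.99 and −1.88 in CHIR_8-16 cultures, against 0.32 and 1.93 in WiBi_0-16 cultures, a fall of 8.33-fold (limma adjusted p = 0.037). Chrm1, the M1 muscarinic receptor, was not well above background in CHIR_8-16 cultures and was at least 1.77-fold lower there (limma adjusted p = 0.0285). Gcg, preproglucagon, fell 7.5-fold (limma adjusted p = 0.0318) and was well above background on 1 of 2 CHIR_8-16 arrays. Tac2, a tachykinin, fell 3.65-fold (limma adjusted p = 0.0285), and Scg2, a granin of secretory granules, fell 1.97-fold (limma adjusted p = 0.045). With Npy they made 3 falls and no rise among 25 measured neuropeptide genes (12% called, against 1.25% of all genes), whose median was 0.29.

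The other culture groups set these levels beside those with a later agonist or a shorter inhibition. CHIR_8-16 arrays are shared by 3 comparisons and WiBi_0-16 arrays by 3, so the values are set side by side and not counted against each other. CHIR_8-16 minus WiBi_0-11 gave 79 called genes (0.309%) with the slide block and 3 without it (0.0117%), and CHIR_11-16 minus WiBi_0-16 gave 0 with or without it, where 5711 and 2585 genes had an unadjusted p under 0.05 in limma. CHIR_8-16 minus CHIR_11-16 gave 2 called genes (0.00783%), Ibsp and Sp8, and 0 without the block, with 975 at an unadjusted p under 0.05. The inhibitor groups differed in 3 genes, WiBi_0-16 minus WiBi_0-11 (0.0117%), and in 0 without the block, with 669 at an unadjusted p under 0.05 in limma. The 3 were BF149588 (−4.96), Phf8-ps (−3.26) and a lincRNA at chr4:148120175-148120234 (−4.83), named after their values were seen.

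Sp5 was at 0.72 and 0.27 in CHIR_11-16 cultures, at the level of CHIR_8-16, and at −3.65 and −1.61 in WiBi_0-11 cultures, with CHIR_8-16 minus CHIR_11-16 at −0.12 (limma adjusted p = 0.946). Neurog2 was at 1.37 and 1.10 in CHIR_11-16 cultures and at −0.38 and −1.14 in WiBi_0-11 cultures. Lef1 was at 2.79 and 1.80 in CHIR_11-16 cultures and at 1.24 and 0.41 in WiBi_0-11 cultures. Neurog2 and Lef1 in CHIR_11-16 thus lay between CHIR_8-16 and both inhibitor groups on each slide, and their differences between the agonist groups did not pass (1.15 for Neurog2, limma adjusted p = 0.26, and 1.5 for Lef1, limma adjusted p = 0.147).

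Sp8 was at 1.12 and 1.85 in CHIR_11-16 cultures and at 0.35 and 1.41 in WiBi_0-11 cultures, beside −3.73 and −2.16 in CHIR_8-16 cultures. Ibsp was at −2.19 and −2.44 in CHIR_11-16 cultures and at −2.45 and −2.03 in WiBi_0-11 cultures, beside −7.65 and −7.13 in CHIR_8-16 cultures. For both genes the 3 other culture groups lay close together and CHIR_8-16 lay apart. The levels of Egfr and Gad1 had the same layout, with Egfr at 1.61 and 1.64 in CHIR_11-16 and 2.35 and 2.02 in WiBi_0-11 cultures, and Gad1 at 0.82 and 1.45 in CHIR_11-16 and 1.13 and 1.60 in WiBi_0-11 cultures, but neither passed between the agonist groups (limma adjusted p = 0.0843 for Egfr and 0.12 for Gad1).

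Frat1 differed from this pattern. It was at −0.63 and −0.52 in CHIR_11-16 cultures and at 1.55 and 1.46 in WiBi_0-11 cultures, so that both agonist groups lay about 2 or more units below both inhibitor groups. Olig1 was at −1.29 and 0.08 in CHIR_11-16 cultures and at 2.32 and 2.24 in WiBi_0-11 cultures, between CHIR_8-16 and the inhibitor groups. Olig2 was likewise between them, at −0.91 and −0.06 in CHIR_11-16 cultures and at 1.10 and 1.04 in WiBi_0-11 cultures.

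**Figure D4:**
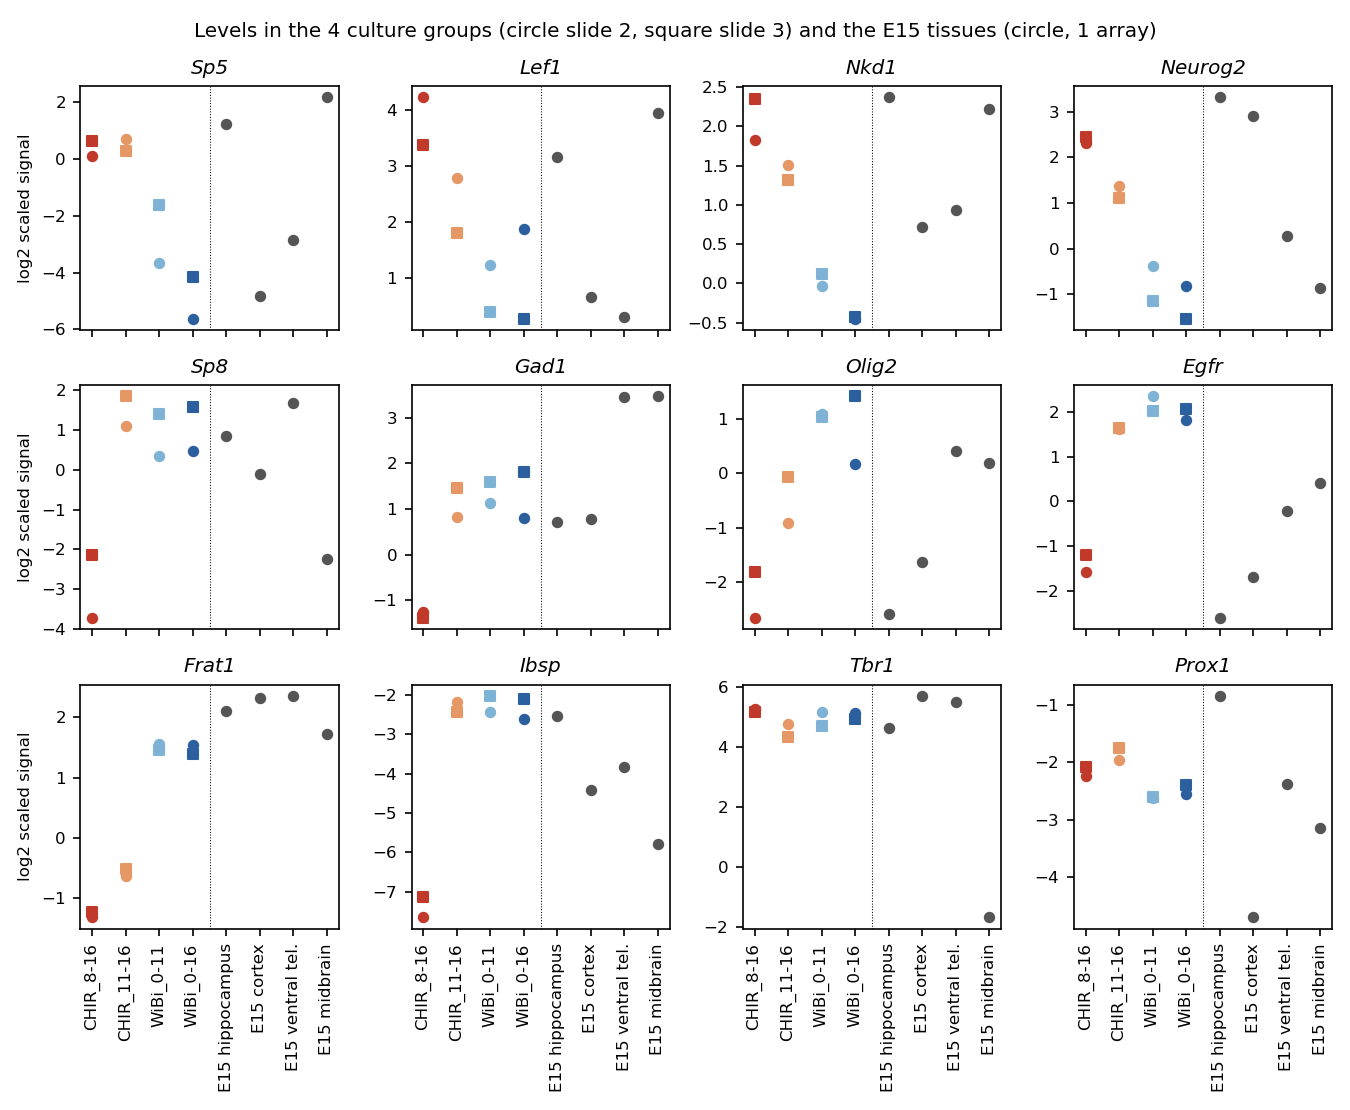
Levels (log2 processed signal relative to the 75th percentile of its array) of 12 genes in the 4 culture groups, with circles for slide 2 and squares for slide 3, and in the 4 E15 tissues, with 1 array each, right of the dotted line. Sp5, Lef1, Nkd1 and Neurog2 are higher in both agonist groups than in both inhibitor groups on each slide. Sp8, Egfr, Gad1 and Ibsp are low in CHIR_8-16 alone among the culture groups, Frat1 is low in both agonist groups, and Tbr1 and Prox1 vary little among cultures.

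In the embryonic tissues, with no replicates, Lef1 was at 3.16 in E15 hippocampus and 0.66 in E15 cortex, and Sp5 at 1.26 in E15 hippocampus and −4.82 in E15 cortex. Both were higher still in E15 midbrain, at 3.94 for Lef1 and 2.19 for Sp5. Neurog2 was similar in both, at 3.32 in hippocampus and 2.90 in cortex, and was −0.86 in midbrain. Egfr was lower in E15 hippocampus (−2.61) and cortex (−1.69) than in ventral telencephalon (−0.21) and midbrain (0.40). Frat1, at 2.10 in E15 hippocampus and 2.31 in cortex, lay at the level of the inhibitor cultures or above it in all 4 tissues (1.72 to 2.36).

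Genes that were well above background and at least 2-fold higher in E15 hippocampus than in each of the other 3 tissues numbered 275, and 22 of them rose and 3 fell in CHIR_8-16 cultures (9.09% called, against 1.25% of all genes), with 189 above 0 and a median of 0.30. The corresponding 155 cortex genes had 4 rises and no fall (2.58% called) and a median of 0.06. The 164 ventral telencephalon genes had no rise and 5 falls (3.05% called) and a median of −0.19. The 746 midbrain genes had 7 rises and 19 falls (3.49% called) and a median of 0.00. Of 1127 genes at least 2-fold higher in E15 hippocampus than in cortex 52 rose and 16 fell (6.03% called). Of 919 genes with the opposite difference 8 rose and 14 fell (2.39% called). Each of these tissue lists thus had a higher share called than all genes. Each tissue is a single array, so these lists carry no replicate check, and the embryos are of another strain and age than the cultures.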

How the data were processed

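Per the labels, Cy3-labelled cRNA from 50 ng of pooled total RNA was hybridised to single-colour Agilent mouse arrays. Per the file headers, the authors read spot intensities on array design 028005 (probes on mm9) using Feature Extraction 10.7.3.1, which subtracted background and detrended each array. The submitters' processing notes name version 9.1 and limma. A table deposited for the whole series gives log2 values on a common distribution set by the authors (column medians 6.181 to 6.225); its background treatment is not stated, and it served as an alternative. Each of its columns correlated at 0.9889 to 0.9939 with the scanner values of its array.

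Non-control probes (55681) were kept when well above background on both arrays of a culture group and with an unmarked spot on every culture array (36430 probes), and the brightest probe stood for each of 25538 genes. No spot was saturated (0 on each array), and 0 pairs of arrays held identical values. Probes were named through accession (28026 and 41), current (1950) or older symbol (362), or the file's own name (25302). Probe coordinates are given as the files have them, and the exon or UTR a probe lies in was not assigned, since no mm9 annotation was used here.

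Limma 3.58.1 (R 4.3.3) was fitted over the 8 culture arrays with 1 mean per group and slide as a block, 2-sided, with Benjamini-Hochberg adjustment over all genes. Both slides held all 4 culture groups, and deviations of arrays on the same slide correlated at 0.5785 to 0.6675 in all 6 pairs of groups. With 2 arrays a group, precision is limited by their number. The fit was tested on simulated data for this comparison over 25538 genes. It recovered 14% of true log2 differences of 1, 68% of 2, 86% of 3 and 86% of 4, with 7.3% false calls. The simulation drew noise separately for each gene, gave the groups otherwise equal means and changed 50 genes by each size. Noise shared between genes was not simulated, so these shares may not hold for the arrays.

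Where a gene was not well above background on either array of a group, folds are lower bounds: the mean of the brighter group over, per array of the dim group, the higher of the lowest signal well above background and the probe's own signal. The comparison, the 32 gene lists and the tests were chosen with earlier results of these data known. The genes named were the 12 largest rises and the 12 largest falls among called genes with symbols, up to 4 called members of each list by size, and a list of genes chosen whatever their result; others (Zic1, Zic2, Zic4, Sox8, Vcam1, Cxcl14, Lama4, Gad2, Slc32a1, S100b and Ttr) and the list members quoted with a difference alone were picked after their values were seen. Normexp used the median spot signal, since not every file has the mean. Alternatives were other scalings and background corrections, the deposited table, other filters on dim probes and choices of probe, a trended prior, fits without the block or with only the arrays compared, and leaving out each array. Some genes are not reported here.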

Additional observations from a re-analysis of the deposited data

Results flagged for a closer look

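Between the agonist groups, which differ in the day the agonist began, 2 of 25538 genes passed (0.00783%). Ibsp was lower by −5.08 on the log2 scale in CHIR_8-16 than in CHIR_11-16 cultures (limma adjusted p = 0.0346). Its levels were −7.65 and −7.13 in CHIR_8-16 cultures, where it was not well above background, against −2.19 and −2.44 in CHIR_11-16 cultures, so the size of that difference is not fixed by the arrays. Sp8 was lower by −4.43 (limma adjusted p = 0.0346), with −3.73 and −2.16 in CHIR_8-16 cultures against 1.12 and 1.85 in CHIR_11-16 cultures. Both genes were lower on both slides. Without slide as a block 0 genes passed between these groups, with 975 at an unadjusted p under 0.05 in limma. The agonist groups also differ in how long both inhibitors were present, which cannot be told apart from the length of agonist exposure.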

How the results depend on the processing

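The count of 320 called genes was 292 with median scaling, 377 with quantile normalization, 373 with the mean over probes and 331 with dim values raised to the floor, an alternative added after seeing the data. It was 1286 with normexp and quantile normalization, 590 with the deposited table, 729 with the stricter filter (23191 genes tested), 2606 with a trended and robust prior, and 0 with no filter on dim probes (35720 tested, 6062 at an unadjusted p under 0.05 in limma). With no replicate block it was 4, and 0 with only the 4 arrays compared and the replicate block (4139 unadjusted). Leaving out 1 array gave 326 calls without CHIR_8-16 replicate 1, 1 without WiBi_0-16 replicate 2 and 0 without either other array (6087 and 4715 unadjusted in limma), and 0 in each case with no replicate block (2073 to 3321 unadjusted), also added later. The cause was not tested. Of the calls 59.4% were higher, against 48.6% with normexp and 69.3% without CHIR_8-16 replicate 1. All 320 kept their direction in every alternative that measured them (255 under the stricter filter), except 1 without CHIR_8-16 replicate 2 and no replicate block. The alternatives use the same arrays, and all 320 had 1 direction on both slides, so this is not independent evidence. With no replicate block, CHIR_8-16 gave 3 calls against WiBi_0-11 and 0 against CHIR_11-16, and WiBi_0-16 gave 0 against WiBi_0-11.

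Of the genes named, those that turned direction had small or unequal differences, and none was called. Tubb3 was −0.14 with quantile normalization, −0.091 with normexp and −0.094 in the deposited table. Slc17a6 was 0.030 with normexp and 0.037 in the deposited table. Leaving out 1 array gave ranges of −0.40 to 0.29 for Slc17a6, −0.027 to 0.63 for Lhx2, −0.019 to 0.41 for Reln, −0.20 to 0.83 for Mki67, −0.040 to 0.47 for Emx2, −0.22 to 0.12 for Snap25, −0.38 to 0.024 for Bcl11b and −2.19 to 0.15 for Gad2. The same with no replicate block gave, without CHIR_8-16 replicate 1, −0.066 for Lhx2, −0.044 for Fezf2, 0.033 for Bcl11b, −0.35 for Reln, −0.079 for Mki67 and 0.14 for Slc17a6. Without CHIR_8-16 replicate 2 it gave −0.022 for Emx2 and 0.37 for Snap25, without WiBi_0-16 replicate 1 it gave 0.21 for Snap25 and 0.23 for Slc17a6, and without WiBi_0-16 replicate 2 it gave −0.22 for Fezf2, 0.20 for Bcl11b and −0.068 for Reln. The medians of the WNT feedback genes (0.73 to 1.68) and of the ventral and GABAergic genes (−1.43 to −0.70) kept their sign in all alternatives, while the hippocampal median ran from −0.12 to 0.20.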
